A study of Mus musculus with 25 samples.

Results

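The insulin-like growth factor genes examined here are 9: the ligands Igf1 and Igf2, the receptors Igf1r and Igf2r, and the binding proteins Igfbp2, Igfbp3, Igfbp4, Igfbp5 and Igfbp7. They were chosen by name, as the genes whose symbol in the deposited signal table is one of these. The table held 14 such probes among 25697 probes. Of the 14, 13 were detected well enough to be kept among 14490 probes, and all 9 genes were among the 10688 genes tested. For each gene the probe with the highest mean signal was tested, and that probe was detected (detection p under 0.05) on all 20 follicle arrays for every one of the 9 genes. The probe left out was a further probe of Igfbp7, which was detected on 0 of 20 arrays.

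The material was mouse ovarian follicles grown in a gel, measured on Illumina bead arrays. Multilayered secondary follicles of 150 to 180 µm were dissected from ovaries of 16-day-old CD-1 mice, an outbred strain, and each was enclosed in alginate (3% in the series title). The medium contained 10 mIU/ml FSH, insulin and transferrin (5 µg/ml each), 5 ng/ml selenium, albumin at 3 mg/ml and fetuin at 1 mg/ml in all cultured groups, so no group without insulin or without FSH was analysed here. Groups were day 0, before culture (n = 5 arrays), and days 2, 4, 5, 6 and 8 of culture (n = 3 arrays each). All cultured groups share the medium, the alginate and the release from it with a lyase, an enzyme. In comparisons with day 0 these cannot be told apart from time in culture. Every array carried RNA of 20 to 40 pooled follicles, and the labels give 3 independent experiments per group. Day 0 has 5 repeats whose titles mark them as a reference, so they may repeat a single pool, and a p value against day 0 may then rest partly on technical spread.

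Insulin-like growth factors 1 and 2 are secreted peptides that act through the IGF1 receptor, a tyrosine kinase, and raise cell growth and survival through PI3 kinase and AKT. The IGF2 receptor, which also binds mannose 6-phosphate, carries IGF2 into lysosomes. Secreted binding proteins hold most of the ligand and, depending on the protein and on proteases that cut it, block or release it. In the mouse ovary IGF1 is made mainly by granulosa cells of healthy growing follicles, and it enhances the response to FSH. In rat ovaries IGFBP4 and IGFBP5 are known as markers of follicles undergoing atresia. Insulin at the concentrations used in culture media can also activate the IGF1 receptor.

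Promoter sequence is shown for Igfbp4 and Igfbp5, since these moved together over the days, and for Igf2, the gene with the largest change among the 9. The windows are from RefSeq on mouse build GRCm38.p6, run 5′ to 3′ on the gene's strand, and hold 250 bases before and 50 bases after the annotated start. Motifs were searched on both strands, and capitals mark each match. The Igfbp4 window lies at chr11:99040994-99041293 on the plus strand, and its capitals are a TATA box, TATAAA, that begins at -28 from the annotated start. The Igfbp5 window lies at chr1:72874816-72875115 on the minus strand, and its capitals are a TATA-like box, TATTTAA, that begins at -51. This motif was added after the sequences had been read. For Igf2 the table has 4 windows, and the one printed, at chr7:142657447-142657746 on the minus strand, is closest to the gene's end. Its capitals are GC boxes, GGGCGG, of which it holds 2. The array has 1 Igf2 probe and cannot tell which start was used.
Igfbp4: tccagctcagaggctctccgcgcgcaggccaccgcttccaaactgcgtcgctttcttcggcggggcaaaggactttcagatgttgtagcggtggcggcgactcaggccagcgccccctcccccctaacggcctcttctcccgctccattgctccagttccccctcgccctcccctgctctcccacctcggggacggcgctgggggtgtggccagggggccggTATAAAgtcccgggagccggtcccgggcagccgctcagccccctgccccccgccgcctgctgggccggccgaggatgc
Igfbp5: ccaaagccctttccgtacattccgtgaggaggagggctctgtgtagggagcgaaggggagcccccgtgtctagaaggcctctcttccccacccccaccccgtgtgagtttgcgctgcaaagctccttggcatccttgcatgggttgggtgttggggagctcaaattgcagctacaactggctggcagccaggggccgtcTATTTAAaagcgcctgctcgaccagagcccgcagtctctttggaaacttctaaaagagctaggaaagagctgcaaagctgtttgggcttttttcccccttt
Igf2: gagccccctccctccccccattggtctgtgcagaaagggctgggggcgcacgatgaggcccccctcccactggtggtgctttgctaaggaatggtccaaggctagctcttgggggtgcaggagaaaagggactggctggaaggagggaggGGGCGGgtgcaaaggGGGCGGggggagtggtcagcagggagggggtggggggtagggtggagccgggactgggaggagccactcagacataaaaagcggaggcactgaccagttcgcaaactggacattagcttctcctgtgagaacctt

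Of the 13 promoter windows of the 9 genes, 1 (Igfbp4) held TATAAA, against 13.6% of 32851 windows in the table. The TATA-like letters were in 1 window (Igfbp5), against 4.51%, and a GC box in 6, against 35.7%. The core of a cyclic AMP response element (TGACG) was in 3 windows, against 20.8%, and an SF-1 motif (AAGGTCA) in 1, that of Igf1r, against 4.72%. The FOXO core TGTTTAC was in 0 of 13, against 3.65%. These are matches of letters in a short window and say nothing of which factor binds. In the genome, Igfbp2 (chromosome 1, 72824480 to 72852474) and Igfbp5 (chromosome 1, 72858065 to 72874865) lie tail to tail with their ends 5591 bases apart, and the other genes lie on chromosomes 5 (Igfbp7), 7 (Igf2, Igf1r), 10 (Igf1), 11 (Igfbp3, Igfbp4) and 17 (Igf2r).

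Arrays were comparable in quality. Between 44.2% and 51.3% of probes were detected per follicle array, and the median standard error of a bead signal was 4.01% to 5.19%. Over all genes tested, 14 of 20 arrays were closest to the mean of their own day with the array itself left out, and all 3 day 6 arrays were closer to a neighbouring day. Day 6 repeat 1 stood apart: repeats of a day differed by at most 4.19 times the bead noise on the other days, against up to 8.89 times between day 6 repeats. This array lay at a distance of 0.68 from its own day and 0.64 from day 8 (root mean square, log2). Day 4 repeat 3 was closest to day 5 (0.4 against 0.42 from its own day). By this measure day 5 repeat 3 (0.36 from day 4 against 0.43) and day 6 repeat 2 (0.31 from day 5 against 0.43) were further misplaced. Where leaving out day 6 repeat 1 or day 4 repeat 3 changed a call, both values are given. The markers of a follicle were present: all 10 oocyte markers and, at day 0, 10 of 11 granulosa markers were detected on all arrays of the day, and all 11 were detected on at least one.

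Between the 6 days, 7 of the 9 genes differed in limma's moderated F test, while 50.0% of all genes tested did. The adjusted p was 5.83e-09 for Igf2, 2.75e-07 for Igfbp4, 0.000297 for Igfbp2, 0.000764 for Igfbp5, 0.00122 for Igfbp3, 0.00635 for Igf1 and 0.0215 for Igf2r. Igf1r (0.233) and Igfbp7 (0.21) did not pass. Within culture, over days 2 to 8 without day 0, 6 of 9 passed against 26.8% of all genes, Igf2r (0.296) being the further gene that did not. The genes did not share one course: Igf2 and Igfbp3 rose late, Igf1 fell late, Igfbp4 and Igfbp5 peaked at day 2, and Igfbp2 rose early, as the panels for single genes show.

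**Figure D1:**
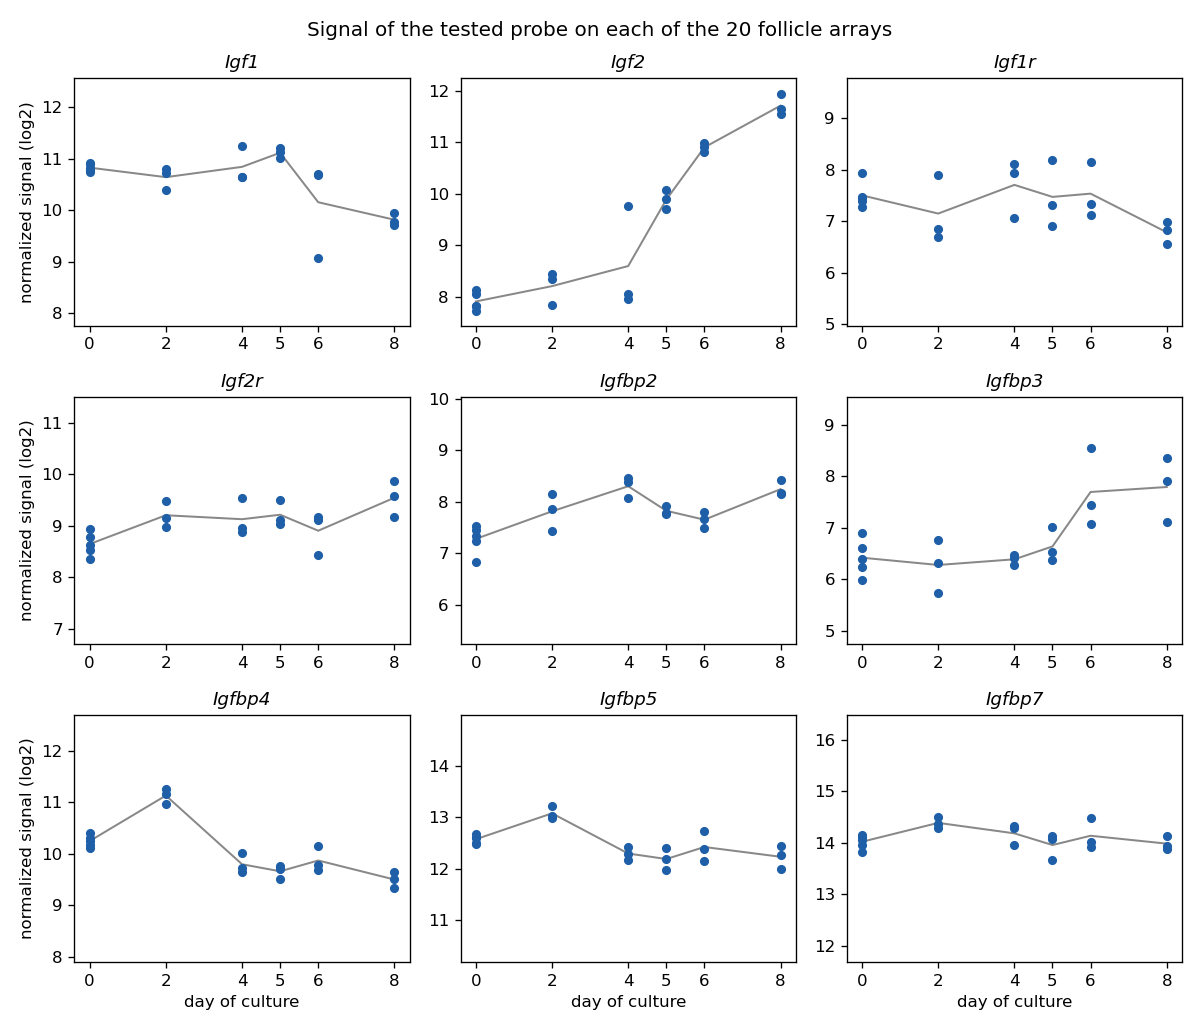
Normalized log2 signal (vertical axis, of the same span in each panel) of the tested probe of each of the 9 genes against day of culture, with a point per array (n = 5 at day 0, n = 3 on the other days) and a grey line through the day means. Igf2 climbs from a mean of 7.91 at day 0 to 11.71 at day 8, and Igfbp4 and Igfbp5 have their highest points at day 2.

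Igf2 encodes the fetal-type growth factor, expressed from the paternal allele in most mouse tissues. On the log2 scale its normalized signals were 8.12, 8.05, 7.73, 7.82 and 7.81 at day 0, 7.83, 8.34 and 8.44 at day 2, and 8.06, 7.96 and 9.76 at day 4. They were 9.89, 10.06 and 9.7 at day 5, 10.9, 10.81 and 10.98 at day 6, and 11.64, 11.54 and 11.94 at day 8. Every array of day 5 and later was above every array of days 0 and 2, and days 5, 6 and 8 did not overlap one another. Between day 0 and day 8 the signal rose by 3.80 (SE 0.28), a fold of 13.9, with an adjusted p of 2.41e-09. Against day 2, the rise at day 8 was 3.50 (SE 0.31, fold 11.3, adjusted p = 1.59e-07).

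At day 4 Igf2 rested on 1 array. Repeat 3 was at 9.76, inside the range of day 5, and the other 2 repeats were inside the range of day 2. The mean change from day 0 was 0.69 (SE 0.28, adjusted p = 0.0685) with that array and 0.10 without it (adjusted p = 0.698). The day 5 change of 1.98 (SE 0.28, adjusted p = 1.49e-05) and the day 6 change of 2.99 (SE 0.28, adjusted p = 6.22e-08) passed. Between neighbouring days no step of Igf2 passed: 1.29 from day 4 to day 5 (adjusted p = 0.0598), 1.01 from day 5 to day 6 (0.122) and 0.81 from day 6 to day 8 (0.335). Without day 4 repeat 3 these steps were 1.87, 1.01 and 0.81, and all 3 passed with adjusted p of 1.9e-05, 0.00483 and 0.0245. The last 2 steps use no day 4 array and kept their size, so only the estimated spread of Igf2 was smaller. Since Igf2 itself stood apart on the array left out, these passes are no independent support for the steps. Size depended on scaling: in the authors' deposited values the day 8 change from day 0 was 2.67 and without background correction 3.40.

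The summed signal of theca markers, like Igf2, was higher late in culture. The summed normalized signal of the 8 theca markers tested (of 9 listed; among them Cyp17a1 and Cyp11a1, enzymes of androgen and steroid synthesis) was 4054 at day 0 (arrays 3830 to 4205), 3621 at day 2 (3458 to 3905), 5035 at day 4 (4889 to 5228), 6602 at day 5 (4805 to 7689), 10999 at day 6 (9803 to 12357) and 16661 at day 8 (14893 to 19744). The median change of the 8 from day 0 was -0.21 at day 2, 0.02 at day 4 and 0.1 at day 5. By day 5 Igf2 had changed by 1.98. At days 6 and 8 the theca median was 0.85 and 1.59. At day 8, 5 theca markers had risen against day 0 and 1 had fallen, where 43.4% of all genes were called. All 8 were detected on every array of that day. Star was detected on none of the arrays of days 2, 4, 5 and 6. On day 4 repeat 3, where Igf2 was high, the theca sum was 4889, the lowest of its day. The part of theca cells in the rise of Igf2 was not tested. Each array holds RNA of whole follicles, so fewer cells of a type and less RNA per cell cannot be told apart here.

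Igf1, the granulosa cell ligand, took the opposite late course. Its signals were 10.89, 10.74, 10.78, 10.82 and 10.91 at day 0, 10.39, 10.73 and 10.81 at day 2, and 10.64, 10.65 and 11.24 at day 4. They were 11.13, 11.02 and 11.2 at day 5, 9.08, 10.71 and 10.68 at day 6, and 9.95, 9.78 and 9.72 at day 8. All day 8 arrays lay below all arrays of days 0, 2, 4 and 5, whereas days 0, 2 and 4 overlapped. Signal at day 8 was lower than at day 0 by a log2 change of -1.01 (SE 0.26, fold 2.02, adjusted p = 0.00363), and with day 0 averaged to 1 sample the adjusted p was 0.157. The fall from day 2 to day 8, -0.82 (SE 0.29), passed only narrowly (adjusted p = 0.0494) and did not pass in 20 of 29 alternative settings.

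The day 6 value of Igf1 rested on repeat 1 at 9.08. With that array the change from day 0 was -0.67 (SE 0.26, adjusted p = 0.0453), and without it -0.13 (adjusted p = 0.546). The day 6 call was lost in 20 of 29 alternatives, among them the authors' values and several with an array of another day left out. Without the same array the step from day 6 to day 8 was -0.88 (adjusted p = 0.0164), against -0.34 (adjusted p = 0.697) with it. The less bright Igf1 probe followed the tested probe over the 20 arrays (Pearson r = 0.88, a description over arrays that share days). At day 8 it differed from day 0 by -0.48 (SE 0.25, adjusted p = 0.149) and at day 6 by -0.22 (adjusted p = 0.531), which did not pass. Beside this late fall, the summed signal of 11 granulosa markers rose from 67230 at day 0 to 137720 at day 6 and stood at 128660 at day 8, and Amh, the anti-Müllerian hormone of small growing follicles, was detected on none of the day 8 arrays. The oocyte marker sum fell from 62186 to 15347 between day 0 and day 8. Their part in the Igf1 result was not tested.

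Of the receptors, Igf1r, the signalling receptor, did not pass in any comparison of the limma model as fitted to all 20 arrays with equal weight. Its signals were 7.39, 7.46, 7.28, 7.93 and 7.44 at day 0, and 6.55, 6.98 and 6.82 at day 8. These groups did not overlap, yet the change of -0.72 (SE 0.32) had an adjusted p of 0.0768. On the days between, Igf1r varied more among repeats, with 7.9, 6.69 and 6.85 at day 2, 8.11, 7.94 and 7.06 at day 4, 7.32, 6.9 and 8.19 at day 5, and 8.14, 7.12 and 7.34 at day 6, so that these days overlapped one another and day 0. With array weights Igf1r passed for day 2 against day 0 (-0.55, adjusted p = 0.0226), day 8 against day 0 (-0.60, adjusted p = 0.0264) and day 4 against day 2 (0.96, adjusted p = 0.0117). Without day 2 repeat 1 the day 8 difference from day 0 passed at an adjusted p that rounds to 0.05.

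By its tested probe, Igf2r, the receptor that clears IGF2, was higher at days 5 and 8 than at day 0. Signals were 8.79, 8.62, 8.54, 8.35 and 8.94 at day 0, 8.97, 9.16 and 9.49 at day 2, 8.89, 8.96 and 9.54 at day 4, 9.5, 9.11 and 9.04 at day 5, 8.43, 9.18 and 9.11 at day 6, and 9.87, 9.59 and 9.18 at day 8. Arrays of days 2, 5 and 8 were all above those of day 0, and the cultured days overlapped one another. The change from day 0 was 0.90 at day 8 (SE 0.21, fold 1.86, adjusted p = 0.00172). At day 5 it was 0.57 (SE 0.21, adjusted p = 0.0421), a call lost in 9 of 28 alternatives, and at day 2 it was 0.56 (adjusted p = 0.0589). Day 4, at 0.48 (adjusted p = 0.0886), and day 6, at 0.26 (adjusted p = 0.347), overlapped day 0 and did not pass. The day 2 change passed without day 6 repeat 1 (adjusted p = 0.0303), day 4 repeat 3 (0.0449) or day 0 repeat 5 (0.0456), and the day 8 adjusted p was 0.0951 with day 0 averaged to 1 sample. The other Igf2r probe (r = 0.79 over 20 arrays) gave 0.70 at day 8 (SE 0.17, adjusted p = 0.00307). Its calls at days 4, 5 and 6 were the reverse of those of the tested probe. It passed at day 4 (0.56, adjusted p = 0.0188) and day 6 (0.51, adjusted p = 0.0254) but not at day 5 (0.36, adjusted p = 0.13).

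Among the binding proteins, Igfbp4 had the sharpest turn. Its signals were 10.31, 10.17, 10.24, 10.4 and 10.1 at day 0 and 11.26, 11.15 and 10.97 at day 2. They then stood at 9.65, 10.01 and 9.72 at day 4, 9.5, 9.71 and 9.76 at day 5, 10.15, 9.77 and 9.68 at day 6, and 9.51, 9.33 and 9.65 at day 8. Day 2 was above every other array, and days 4, 5 and 8 were below all of day 0. Igfbp4 rose by 0.88 from day 0 to day 2 (SE 0.13, fold 1.85, adjusted p = 6.85e-05) and then changed by -1.33 from day 2 to day 4 (SE 0.15, fold 2.52, adjusted p = 1.37e-05). From day 2 to day 8 the change was -1.63 (SE 0.15, fold 3.10, adjusted p = 2.22e-07), and from day 0 to day 8 it was -0.75 (SE 0.13, adjusted p = 0.000146). None of these 4 calls was lost in any of 29 alternatives. The other Igfbp4 probe gave 0.99 by day 2 and -1.44 from day 2 to day 4, both past the threshold, and correlated with the tested probe at r = 0.97.

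Igfbp5 followed the same turn with smaller changes. Its signals were 12.49, 12.5, 12.59, 12.62 and 12.67 at day 0, 13.21, 13.03 and 12.99 at day 2, 12.29, 12.18 and 12.42 at day 4, 11.97, 12.19 and 12.41 at day 5, 12.73, 12.15 and 12.39 at day 6, and 12, 12.26 and 12.44 at day 8. All day 2 arrays were above all others. The gene rose by 0.50 (SE 0.14, adjusted p = 0.0129) by day 2, changed by -0.78 (SE 0.16, adjusted p = 0.00353) from day 2 to day 4 and by -0.84 (SE 0.16, adjusted p = 0.000533) from day 2 to day 8. The day 2 rise did not pass with day 0 averaged to 1 sample (adjusted p = 0.374) or without day 2 repeat 1 (0.43, adjusted p = 0.0693). Against day 0, the day 8 value differed by -0.34 (adjusted p = 0.0581), and it passed in 7 of 29 alternatives, among them without day 6 repeat 1 (adjusted p = 0.0299), day 6 repeat 2 (0.046) or day 8 repeat 3 (0.0345). Over the 20 arrays Igfbp4 and Igfbp5 correlated at r = 0.90, and at 0.46 after each day's mean was taken out. With the day means out, each correlated more with other members. Igfbp5 did so with Igfbp3 (0.88) and Igfbp7 (0.55), and Igfbp4 with Igfbp7 (0.70) and Igfbp3 (0.62). All these values are descriptions over arrays that share days.

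The signal of 6 smooth muscle and pericyte markers dropped over the same step: it summed to 6379 at day 0 (6134 to 6874), 6135 at day 2 (5822 to 6633), 3155 at day 4 (2382 to 3887) and 2905 at day 8 (2414 to 3228). Rgs5, a pericyte gene, and Des, desmin, were detected on none of the arrays of days 4, 5, 6 and 8. Endothelial markers (12) went from a sum of 4060 at day 0 to 3091 at day 2, 2240 at day 4 and, last, 2535 at day 8. Their part in the fall of Igfbp4 and Igfbp5 was not tested. Stromal markers (12) had day means between 14807 and 18861, with the highest array at 24204 on day 6.

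Igfbp3, the main carrier of IGF in plasma, was higher on the last days of culture. It stood at 5.98, 6.23, 6.39, 6.89 and 6.6 at day 0, 6.77, 6.32 and 5.74 at day 2, 6.28, 6.47 and 6.41 at day 4, and 6.37, 6.53 and 7.01 at day 5. At day 6 the signals were 8.55, 7.08 and 7.45, and at day 8 they were 7.12, 7.9 and 8.35. All arrays of days 6 and 8 lay above all arrays of the earlier days. The change from day 0 was 1.37 at day 8 (SE 0.31, fold 2.59, adjusted p = 0.00134) and 1.27 at day 6 (SE 0.31, adjusted p = 0.00267). With day 0 averaged to 1 sample neither passed (adjusted p = 0.0809 and 0.113). From day 2 to day 8 it was 1.52 (SE 0.35, fold 2.86, adjusted p = 0.00341). Without day 6 repeat 1, the array at 8.55, the day 6 change was 0.84 (adjusted p = 0.0328). Being dim, the probe was sensitive to scaling: the authors' deposited values gave 0.48 and values without background correction 0.86 for day 8 against day 0.

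Igfbp2, another carrier of IGF1 and IGF2, was higher than at day 0 on days 2, 4, 5 and 8, and its day 6 difference did not pass. Its signals were 7.33, 7.46, 7.24, 6.83 and 7.53 at day 0, 7.44, 7.86 and 8.14 at day 2, and 8.07, 8.38 and 8.45 at day 4. They were 7.92, 7.76 and 7.79 at day 5, 7.8, 7.66 and 7.49 at day 6, and 8.42, 8.14 and 8.17 at day 8. Days 4, 5 and 8 were above all of day 0, while days 2 and 6 overlapped it. The change from day 0 was 0.53 at day 2 (SE 0.17, adjusted p = 0.0247), 1.02 at day 4 (SE 0.17, fold 2.03, adjusted p = 8.56e-05), 0.55 at day 5 (adjusted p = 0.0153), 0.37 at day 6 (adjusted p = 0.0808) and 0.97 at day 8 (SE 0.17, fold 1.95, adjusted p = 9.83e-05). The day 2 call was lost in 5 of 29 alternatives, among them without day 0 repeat 4 (0.42, adjusted p = 0.0595), day 2 repeat 2 (0.51, 0.0853) or day 2 repeat 3 (0.37, 0.176), and the day 5 call in 3, among them without day 5 repeat 1 (0.50, adjusted p = 0.0629). In the authors' deposited values the changes were more than 1.5 times smaller, at 0.22, 0.45, 0.22 and 0.42 for days 2, 4, 5 and 8, and with day 0 averaged to 1 sample the adjusted p was 0.337 at day 2 and 0.216 at day 5. The pair of Igfbp2 probes correlated at r = 0.56. They differed at day 6, where the other probe gave 1.14 (adjusted p = 0.000576). At day 2 the other probe gave 0.48 (SE 0.23, adjusted p = 0.156), which did not pass.

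Igfbp7, a matrix-associated protein with low affinity for IGF, had arrays between 13.66 and 14.51 on all days. Its largest changes were 0.36 from day 0 to day 2 (SE 0.15, adjusted p = 0.0842) and -0.40 from day 2 to day 8 (SE 0.17, adjusted p = 0.0961). Day 2, at 14.51, 14.37 and 14.28, lay above day 0, at 14.05, 14.12, 14.15, 13.95 and 13.83, and no comparison passed in the limma model of all 20 arrays. Without day 6 repeat 1 both changes passed (adjusted p = 0.0412 and 0.0479), and the day 2 change also passed in the authors' deposited values (0.38, adjusted p = 0.0349) and with array weights (0.29, adjusted p = 0.0198).

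**Figure D2:**
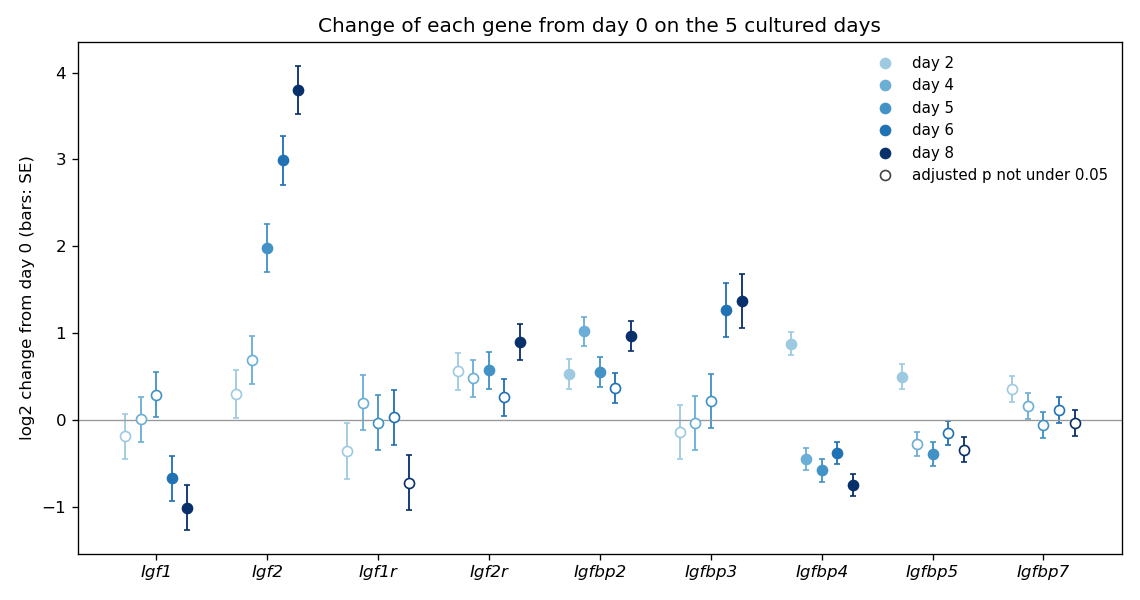
Log2 change of each of the 9 genes from day 0 (n = 5) on days 2, 4, 5, 6 and 8 (n = 3 each), with bars for the standard error of the fit and open circles where the adjusted p was not under 0.05. Igf2 stands at 3.80 on day 8, while Igfbp4 is above 0 at day 2 (0.88) and below it from day 4 on.

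Counted per comparison, 3 of 9 genes rose between day 0 and day 2 (Igfbp2, Igfbp4 and Igfbp5) and 0 fell, where 25.1% of all genes tested were called. Without day 6 repeat 1, 5 were called, Igf2r and Igfbp7 being added, while the count over all genes went from 2688 to 3225. Between day 0 and day 8, 4 rose (Igf2, Igf2r, Igfbp2 and Igfbp3) and 2 fell (Igf1 and Igfbp4), where 43.4% of all genes were called. From day 2 to day 8, 2 rose (Igf2 and Igfbp3) and 3 fell (Igf1, Igfbp4 and Igfbp5) against 22.4% of all genes. Igfbp7 was added without day 6 repeat 1, while the count over all genes went from 2396 to 2870. From day 2 to day 4, 2 fell (Igfbp4 and Igfbp5) against 8.39%. With 9 genes, each of these counts differs from the share of all genes by at most a few genes, and none of these differences was tested. The median change of the 9 was 0.36 from day 0 to day 2, -0.04 from day 0 to day 8, and -0.36 from day 2 to day 8, while the median over all genes was 0 in each.

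The later single steps called few genes of any kind: 0.954% of all genes from day 4 to day 5, 1.34% from day 5 to day 6 and 0.767% from day 6 to day 8. Of the 9 genes, 0 were called in each by limma, and the array weights alternative called 1 from day 4 to day 5 (Igf2) and 1 from day 6 to day 8 (Igf1). Leaving out day 4 repeat 3, on which Igf2 itself stood apart, called Igf2 in all 3 steps. Leaving out day 6 repeat 1, on which Igf1 itself stood apart, called Igf1 from day 6 to day 8. Without day 6 repeat 2, Igf1 was called from day 5 to day 6 (adjusted p = 0.0411). At an unadjusted p under 0.05 there were 2 of 9 from day 4 to day 5 (Igf2 and Igfbp2), 3 from day 5 to day 6 (Igf1, Igf2 and Igfbp3) and 5 from day 6 to day 8 (Igf2, Igf1r, Igf2r, Igfbp2 and Igfbp4). Many other genes were under this threshold too. Ranked by p among 10688 genes, the last of these were at 672 (Igfbp2), 532 (Igfbp3) and 1134 (Igf1r) in the 3 steps. At least that many genes were thus under it in each step, and their full share was not counted. The shares of all genes given above are for adjusted p and cannot be set beside these unadjusted counts. The unadjusted counts are therefore no result about the 9 genes as a set. Comparisons of days 4, 5 and 6 with day 0 were added after the data had been seen. They called 2 of 9 at day 4 (Igfbp2 up, Igfbp4 down) against 33.7% of all genes, 5 of 9 at day 5 (Igf2, Igf2r and Igfbp2 up, Igfbp4 and Igfbp5 down) against 35.9%, and 4 of 9 at day 6 (Igf2 and Igfbp3 up, Igf1 and Igfbp4 down) against 42.9%. Single arrays moved these counts. At day 4, 1 was called without day 4 repeat 3, where Igfbp4 had -0.41 (adjusted p = 0.0561), against -0.45 (adjusted p = 0.0146) with it. At day 5, 2 were called without day 5 repeat 1, and 3 without day 5 repeat 2 or day 0 repeat 3 or 4. At day 6, 2 were called without day 0 repeat 1 or 4. With each array left out in turn, the counts over all genes ran from 2831 to 4080 at day 4. They ran from 3289 to 4332 at day 5 and from 4158 to 4668 at day 6. All comparisons with day 0 share its 5 arrays.

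Beyond these 9, a list of 20 further genes of the IGF system had 12 that were tested. Between day 0 and day 2, 1 rose and 5 fell, with a median change of -0.29, where 25.1% of all genes were called. From day 2 to day 8, 6 rose and 3 fell, with a median of 0.33, against 22.4% of all genes. Igfbp6, a binding protein with preference for IGF2, had a mean of 9.27 (SD 0.17, n = 5) at day 0, 7.15 (SD 0.4, n = 3) at day 2 and 9.12 (SD 0.31, n = 3) at day 8. It changed by -2.12 (SE 0.24, adjusted p = 2.75e-06) and then by 1.97 (SE 0.27, adjusted p = 2.38e-05), a course opposite in sign to that of Igfbp4 over the same comparisons.

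H19, the noncoding RNA gene imprinted together with Igf2 and expressed from the maternal allele, did not track it over the first days. Its mean signal was 7.31 (SD 0.33) at day 0, 6.18 (SD 0.12) at day 2, 5.87 (SD 0.98) at day 4, 6.4 (SD 0.29) at day 5, 7.14 (SD 0.14) at day 6 and 7.9 (SD 0.15) at day 8. At day 4 it was detected on 1 of 3 arrays. It changed by -1.13 (SE 0.29, adjusted p = 0.00673) by day 2, when Igf2 changed by 0.30 (adjusted p = 0.498), and by 1.72 (SE 0.32, adjusted p = 0.000517) from day 2 to day 8. The day 8 level differed from day 0 by 0.59 (adjusted p = 0.106), which did not pass, against 3.80 for Igf2.

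Between day 0 and day 8, 3 of the 12 rose and 4 fell, against 43.4% of all genes called. Htra3, a serine protease, changed by 1.58 (SE 0.23, adjusted p = 1.09e-05), and Grb14, an adaptor that dampens insulin receptor signalling, by 1.26 (SE 0.21, adjusted p = 5.95e-05). Stc2, stanniocalcin 2, was the further gene that rose, by 0.46 (SE 0.16, adjusted p = 0.0229). Igf2bp2 and Igf2bp3, proteins that bind messenger RNAs including that of Igf2, changed by -1.92 (SE 0.15, adjusted p = 6.01e-09) and by -1.64 (SE 0.15, adjusted p = 2.97e-08). Grb10 changed by -0.66. Igfals was detected on all 5 day 0 arrays and on 0 of 3 at day 8, and was at least 1.3-fold lower there (adjusted p = 0.000411). Insr, the insulin receptor, was at 8.12 (SD 0.16) at day 0, 7.64 (SD 0.12) at day 2 and 8.19 (SD 0.38) at day 8. It changed by -0.48 (adjusted p = 0.0369) and then by 0.55 (adjusted p = 0.0365).

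Of 36 genes of insulin and IGF signal transduction 31 were tested. By day 2, 4 rose and 2 fell, by day 8, 6 rose and 5 fell, and from day 2 to day 8, 2 rose and 1 fell, with medians between -0.08 and 0.06. Over all genes 25.1%, 43.4% and 22.4% were called in these comparisons. Sgk1, a kinase activated downstream of PI3 kinase, changed by -1.78 (SE 0.22, adjusted p = 7.61e-06) by day 2 and by -2.30 (SE 0.22, adjusted p = 8.22e-08) by day 8. Pik3cd, a catalytic subunit of PI3 kinase found mainly in white blood cells, changed by -1.56 (SE 0.16, adjusted p = 2.34e-07) by day 8. Foxo1, the transcription factor that AKT excludes from the nucleus, changed by 1.21 (SE 0.14, adjusted p = 5.98e-07) by day 8. Irs1, an insulin receptor substrate, was detected on 5 of 20 arrays, so its level was mostly not above background. Irs2, a further such substrate, was detected on 20 of 20.

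Genes known to rise when FOXO factors are active gave a list of 14, of which 13 were tested. By day 2, 2 rose and 5 fell, where 25.1% of all genes were called. Pdk4, the kinase that restrains pyruvate dehydrogenase, changed by -3.31 (SE 0.23, adjusted p = 3.92e-09), Gadd45a, a growth arrest gene, by -1.97 (SE 0.14, adjusted p = 5.18e-09), and Bcl6 and Cited2, both transcriptional regulators, by -1.01 and -1.05 (adjusted p = 6.15e-05 and 0.0112). From day 2 to day 8, 6 rose and 0 fell, with a median of 0.72, against 22.4% of all genes: Pdk4 by 2.04 (SE 0.26, adjusted p = 8.63e-06), Bcl6 by 1.66 (SE 0.17, adjusted p = 7.77e-07), Fbxo32, a ubiquitin ligase, by 1.52 (SE 0.17, adjusted p = 2.58e-06) and Ccng2, cyclin G2, by 1.5 (SE 0.33, adjusted p = 0.00222). Against day 0, at day 8, 5 were higher (Sesn1, Sesn3, Bcl6, Txnip and Fbxo32) and 2 lower (Gadd45a and Pdk4), with a median of 0.59, against 43.4% of all genes. Fbxo32 had changed by 1.49 (SE 0.15, adjusted p = 2.08e-07), Sesn3, a sestrin, by 1.48 (SE 0.26, adjusted p = 0.000106), Gadd45a by -2.05 (SE 0.14, adjusted p = 8.71e-10) and Pdk4 by -1.27 (SE 0.23, adjusted p = 0.000163). Transcripts do not measure the activity of any of these proteins.

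**Figure D3:**
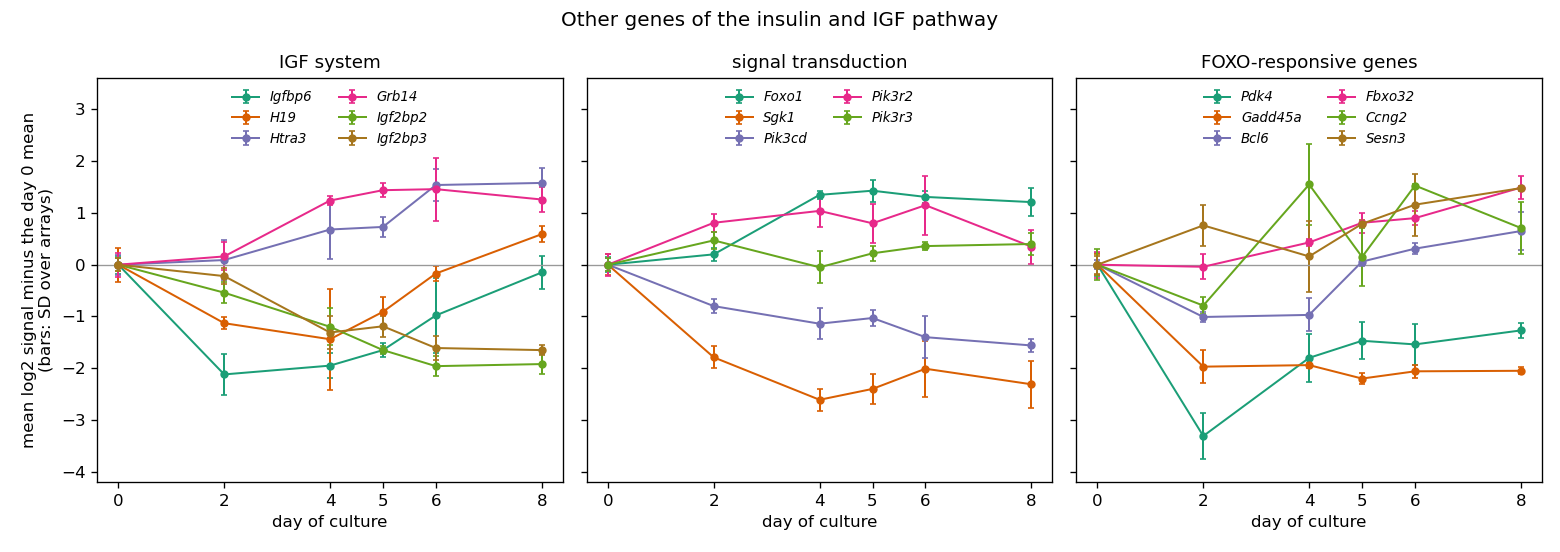
Mean log2 signal minus the day 0 mean against day of culture for genes of 3 lists, with bars for the SD over arrays (n = 5 at day 0, n = 3 on other days). Igfbp6 fell by 2.12 and Pdk4 fell by 3.31 between day 0 and day 2, and Igfbp6 is back near its starting level at day 8.

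Genes with a course most like each member were named by their Pearson correlation of log2 signal over the 20 arrays, among 5109 candidates that are no members and differ between the days. Since arrays of a day share that day, the values are descriptions. Nearest to Igf2 were Kif3c, a kinesin subunit (r = 0.97), and Mgarp, a mitochondrial protein (r = 0.95). Kif3c was at 7.94 (SD 0.07) at day 0 and 9.65 (SD 0.1) at day 8, and Mgarp at 11.2 (SD 0.19) and 13.15 (SD 0.1). Nearest to Igfbp4 were Chst2, a sulfotransferase, and Cyp7b1, an oxysterol hydroxylase (both r = 0.91). Nearest to Igfbp5 were Smoc1 (r = 0.91) and Serping1, the C1 inhibitor (r = 0.90). Nearest to Igf1 were Rpl12, a ribosomal protein (r = 0.93), and Fkbp11 (r = 0.92), to Igfbp3 Tgoln1 (r = 0.94) and the nuclear receptor Rora (r = 0.93), to Igf2r Smim19 (r = 0.90) and Cd59a (r = 0.89), and to Igfbp2 Tctn3 (r = 0.87) and Poglut1 (r = 0.84).

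**Figure D4:**
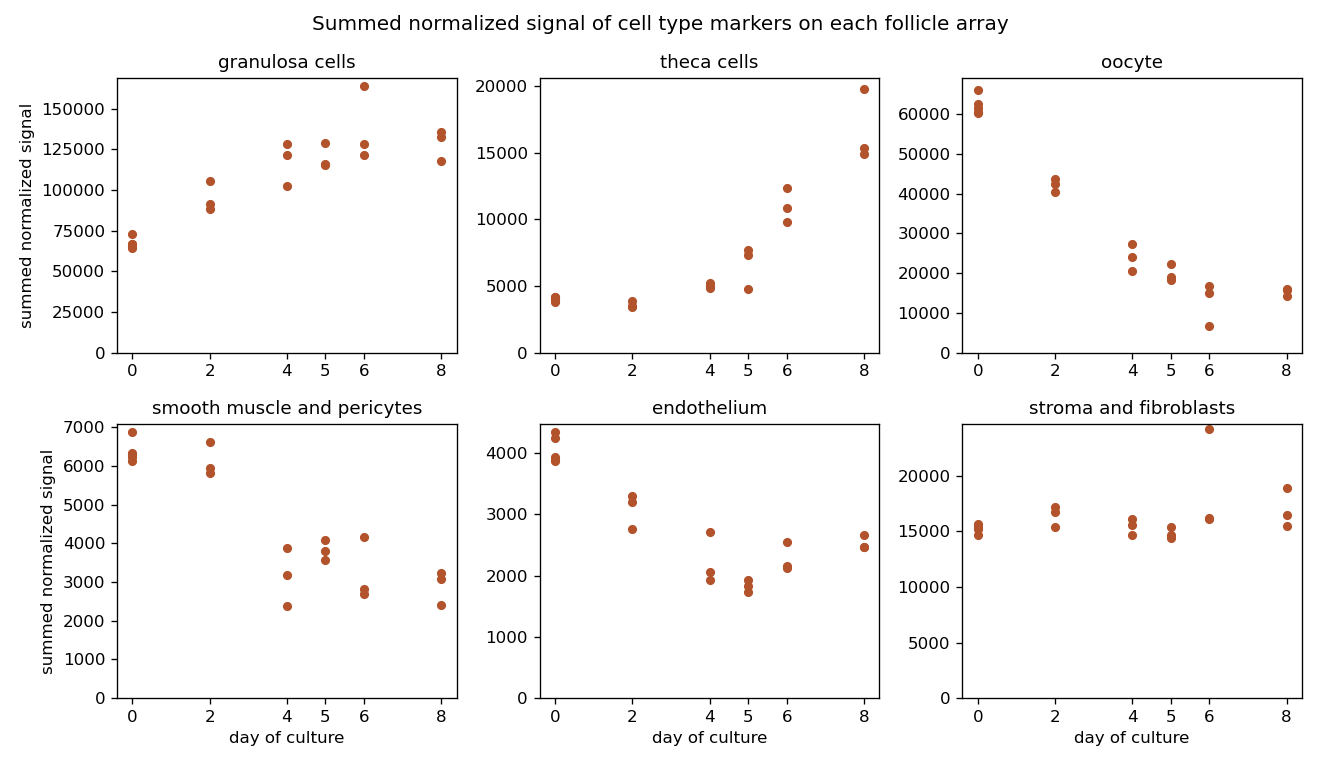
Summed normalized signal of the tested markers of 6 cell types on each of the 20 follicle arrays against day of culture, with vertical axes that start at 0. Theca markers climb from a mean of 4054 to 16661 and oocyte markers fall from 62186 to 15347, while smooth muscle and pericyte markers are lower from day 4 on.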

How the data were processed

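RNA of pooled mouse follicles was measured on Illumina bead arrays. Per the file headers, the deposited signal table holds, by probe and array, a mean bead intensity with its standard error, a detection p-value and the number of beads (another unit, a count of beads), with no normalization stated. A table by the authors, whose array medians lie between 7.84 and 7.89, holds deposited log2 values for 23286 of the probes. How they were normalized is not given in the sources used here. No slide or chip position was used.

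The follicle arrays (20) were background-corrected from the detection p and quantile normalized with neqc (offset 16) in limma 3.58.1 (R 4.3.3). A probe was kept if its detection p was under 0.05 on 3 or more arrays, and each symbol was represented by its brightest probe on average. Of the symbols, 14307 were current in the mouse RefSeq table (GRCm38.p6), 2906 were updated through a synonym and 925 were kept as given. A limma model (lmFit, eBayes) with a mean for each day gave the tests, with Benjamini-Hochberg adjustment across the 10688 genes and a threshold of 0.05. Changes are differences of mean log2 signals, and levels of different probes are not compared. How many arrays a day had limits the precision. The fit was tested on simulated data.

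The genes, the lists and the marker sets were chosen with earlier results of these data known. Named were all 9 genes, from each pathway list at most 4 genes past the threshold with the biggest changes, and the 2 genes most correlated with each of the 9 that passed the F test. Up to 2 bright genes per list that did not pass were also in the rule: examples are Htra1 (0.48 from day 0 to day 8, adjusted p = 0.158) and Socs2 (0.21, adjusted p = 0.337). A further gene that the rule named is not reported here. Insr, Stc2, Igfals, Grb10, Irs1, Irs2, Sesn1 and Txnip were named after their values had been seen. The marker lists of macrophages (summed signal 521 at day 0 and 1223 at day 8), ovarian surface epithelium (2454 and 763) and red blood cells (3122 and 133) are given only here. Although the macrophage sum was higher at day 8, 2 of its 9 tested markers rose and 4 fell, where 43.4% of all genes were called. Their median change was -0.33. Alternatives were the authors' values, no background correction, normalization with all 25 arrays, no filter, a stricter filter (detection p under 0.01 on at least 5 arrays), every probe tested, array weights, day 0 as 1 sample, the repeat number as a block, and each array left out.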

Additional observations from a re-analysis of the deposited data

Results flagged for a closer look

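At day 0, Igf1r had 1 array far from the others: repeat 4 was at 7.93, and the nearest other array was at 7.46, a gap of 0.726 of the whole range, above Dixon's critical value of 0.71 for 5 arrays. Chance flags about 1 in 20 groups, and 9 genes were examined at day 0.

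The 5 arrays labelled as a brain reference enter no comparison, and 3 of the 9 genes were brighter there than on any day 0 array when all 25 arrays were normalized together. Igf2 was at 12.29 (SD 0.03, n = 5) against 7.77 at day 0 and 11.65 at day 8, Igf2r at 10.39 (SD 0.24) against 8.51, and Igfbp4 at 10.83 (SD 0.03) against 10.13. The brain markers Snap25 and Gfap were detected on 0 of these 5 arrays and Mbp lay between 5.95 and 6.82. The heart muscle genes Myh6 and Actc1, looked at after the values had been seen, lay between 14.82 and 15.07, so the tissue label goes against its markers.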

How the results depend on the processing

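Of 27 calls of the 9 genes, 13 were lost in none of 29 alternatives, and no result changed sign in a call. In the authors' values 9 of the 25 calls with a value there were more than 1.5 times smaller, and the tested Igf2r probe has no value there. The repeat number gave no pairing: arrays with the same number correlated in their deviations at -0.42 to 0.56 (median 0.02) and others at -0.58 to 0.51 (median 0.03). With the replicate block, 81 genes were called from day 5 to day 6 and 46 from day 6 to day 8, and 1, 2 and 2 of the 9 genes at days 4, 5 and 6 against day 0. Array weights gave 4802 genes for day 2 against day 0 (6 of the 9), 3885 for day 8 against day 2, 2321 for day 4 against day 2, 200, 246 and 254 for the later steps (1, 0 and 1 of the 9), and 4717 over the 5 cultured days. With day 0 as 1 sample, and so fewer samples, 498, 1175, 1398, 1938 and 2113 genes were called at days 2, 4, 5, 6 and 8 against day 0 (1, 1, 1, 1 and 3 of the 9), 558 from day 2 to day 4, 47, 38 and 23 in the later steps and 2662 over the 6 days. The authors' values gave 125 genes from day 6 to day 8 and 1 of the 9 (Igf2) from day 5 to day 6. With each array left out in turn the counts ran from 511 to 1173 for day 4 against day 2, from 51 to 145, from 52 to 218 and from 34 to 95 for the later steps (0 to 1 of the 9 in each), and among the 9 genes from 2 to 5 for day 2, 1 to 3 for day 4, 2 to 5 for day 5 and 2 to 4 for day 6 against day 0. Where calls changed, the cause was not tested.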

Other observations

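On the arrays labelled as a brain reference, Igfbp2 was detected on 0 of 5 arrays and Igf1 stood at 7.76 (SD 0.14) against 10.73 at day 0. Igfbp5 (11.82) and Igfbp7 (13.01) were below their day 0 means of 12.57 and 14.04, and Igf1r (7.2 against 7.37) and Igfbp3 (6.9 against 6.3) differed less. These values were not tested, since tissue, pool and amplification batch cannot be told apart there.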
